A study of Mus musculus with 6 samples.

Results

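Lysosomal enzymes and cystatin C were compared between mouse astrocytes of 2 brain regions, on 3 arrays of cerebellar astrocytes and 3 arrays of neocortical astrocytes. The group was a list of 36 genes, found through the gene symbols of the platform annotation, current or former. Symbols of 35 of them matched 79 probe sets, out of 18193 genes named on the array, and Cd63 was not analysed here. All 35 genes were among the 12616 genes that were bright enough to test, through 68 of the 79 probe sets; the other 11 probe sets were below the filter on dim signal. The members were chosen by name and function, with earlier results of these arrays known.

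The arrays measured biotin-labelled amplified RNA made from total RNA, and neither group carried a stated treatment, allele or age. The labels name the ICR strain for the neocortical arrays alone, so that a difference of strain and one of region cannot be told apart if the cerebellar astrocytes came from another strain. The labels do not give how the astrocytes were isolated, or whether each array had an animal or preparation of its own. The p-values therefore measure only the spread between these arrays, which may be partly technical. Of 12 astrocyte marker genes, 11 were above the range of the bacterial control probe sets on all 6 arrays.

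The lysosome is the acidic compartment in which proteins, glycans, glycosaminoglycans and lipids are taken apart by dedicated hydrolases. Most of these enzymes are made in the endoplasmic reticulum, tagged with mannose 6-phosphate and carried to the lysosome by sorting receptors, and inherited loss of one of them commonly causes a storage disease. Cystatin C, the product of Cst3, is a secreted inhibitor of cysteine cathepsins that astrocytes make in large amounts, and TFEB is a transcription factor that raises many lysosomal genes by binding a palindromic element, known as the CLEAR element, near their start sites.

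RefSeq start-site windows of the GRCm38.p6 build, each covering 250 bases before and 50 bases after a start, were matched to 32 of the 35 genes and gave 38 windows. The hexamer CACGTG, a palindrome and so the same on both strands, lay in a window of 13 of these 32 genes (40.6%), against 8.09% of all 27025 genes with a window. The octamer TCACGTGA, also a palindrome and one that contains the hexamer, lay in 5 of 32 (15.6%), against 1.12% of all genes. The 250 bases before the start are shown for the 3 genes that differed between the regions, on the gene's own strand and 5′ to 3′, with the octamer of Ctsa and the hexamer of Gaa in capitals. Neither motif was in the window of Cst3. The Cst3 bases are chr2:148875513-148875762 on the minus strand, those of Ctsa are chr2:164833523-164833772 on the plus strand, from the second of its 2 start sites, and those of Gaa are chr11:119267713-119267962 on the plus strand. The octamer shown for Ctsa began 13 bases before the start (-13), and its window held a second copy at base 5 after the start, beyond the bases shown. The hexamer of Gaa began 140 bases before the start (-140).
Cst3: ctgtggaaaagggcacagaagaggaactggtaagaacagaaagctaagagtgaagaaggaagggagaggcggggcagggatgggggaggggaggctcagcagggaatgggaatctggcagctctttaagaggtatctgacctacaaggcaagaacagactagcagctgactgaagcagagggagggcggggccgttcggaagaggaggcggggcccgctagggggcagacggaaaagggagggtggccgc
Ctsa: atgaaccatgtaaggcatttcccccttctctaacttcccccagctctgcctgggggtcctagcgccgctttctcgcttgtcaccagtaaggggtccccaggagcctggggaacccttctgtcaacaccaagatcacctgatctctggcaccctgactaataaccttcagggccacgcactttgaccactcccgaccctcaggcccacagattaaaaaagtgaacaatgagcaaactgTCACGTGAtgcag
Gaa: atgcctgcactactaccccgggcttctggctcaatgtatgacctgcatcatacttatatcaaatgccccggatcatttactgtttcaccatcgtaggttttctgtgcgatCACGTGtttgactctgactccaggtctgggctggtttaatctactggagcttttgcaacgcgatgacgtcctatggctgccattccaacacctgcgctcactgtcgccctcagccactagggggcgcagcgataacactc

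The other 4 genes with the octamer were Ctsd, Cln3, Mcoln1 and Gla, none of which passed the test between the regions. They are shown as 30 bases around the octamer, which is in capitals, for comparison with the Ctsa sequence. The Ctsd bases are chr7:142387908-142387937 on the minus strand, the Cln3 bases chr7:126583340-126583369 on the minus strand, the Mcoln1 bases chr8:3500462-3500491 on the plus strand, and the Gla bases chrX:134601215-134601244 on the minus strand. The octamer shown began at -99 in Ctsd, -122 in Cln3, -46 in Mcoln1 and -228 in Gla, and the Gla window held a second octamer at -195. The windows of Ctsd, Cln3 and Mcoln1 each held 1 more hexamer outside the octamer, at -245, -149 and -71.
Ctsd: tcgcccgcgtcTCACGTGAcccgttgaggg
Cln3: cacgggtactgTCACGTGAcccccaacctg
Mcoln1: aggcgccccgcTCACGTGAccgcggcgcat
Gla: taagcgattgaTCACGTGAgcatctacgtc

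Of the 35 genes, 2 were lower in cerebellar than in neocortical astrocytes, Cst3 and Gaa, and 1 was higher, Ctsa, while the other 32 did not pass the test. A gene was read by the brightest of its probe sets, and the test was limma's moderated test on log2 signal, two-sided, with Benjamini-Hochberg adjustment over all 27022 probe sets tested and a threshold of 0.05. The share past the threshold was 8.57% of the members, against 12.7% of all genes tested, of which 5.3% were higher and 7.36% lower. No member differed by 2-fold or more, as 6.85% of all genes did, and the largest difference among them, that of Cst3, was exceeded by 18.7% of genes.

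The regional differences of these genes were small and leaned downwards. The log2 difference, cerebellar minus neocortical, was negative for 26 of 35 genes (74.3%), against 51.8% of all genes, and its median was -0.13 for the members and -0.02 for all genes. The median of the members depended on single arrays: it was -0.24 without cerebellar array 2, and over the other single-array omissions it ran from -0.15 to -0.09. At an unadjusted p under 0.05, 7 members were lower and 1 higher, which is 8 of 35, against 27.9% of all genes. For 23 of the 32 genes that did not pass, the 95% interval of the difference lay within 1.5-fold either way, and for 31 it lay within 2-fold. Ctsk was the one whose interval was wider. With the replicate number as a replicate block, 4 members were lower, Ids (adjusted p = 0.0386) and Psap (adjusted p = 0.0403) having joined Cst3 and Gaa, and Ctsa remained the 1 that was higher.

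**Figure D1:**
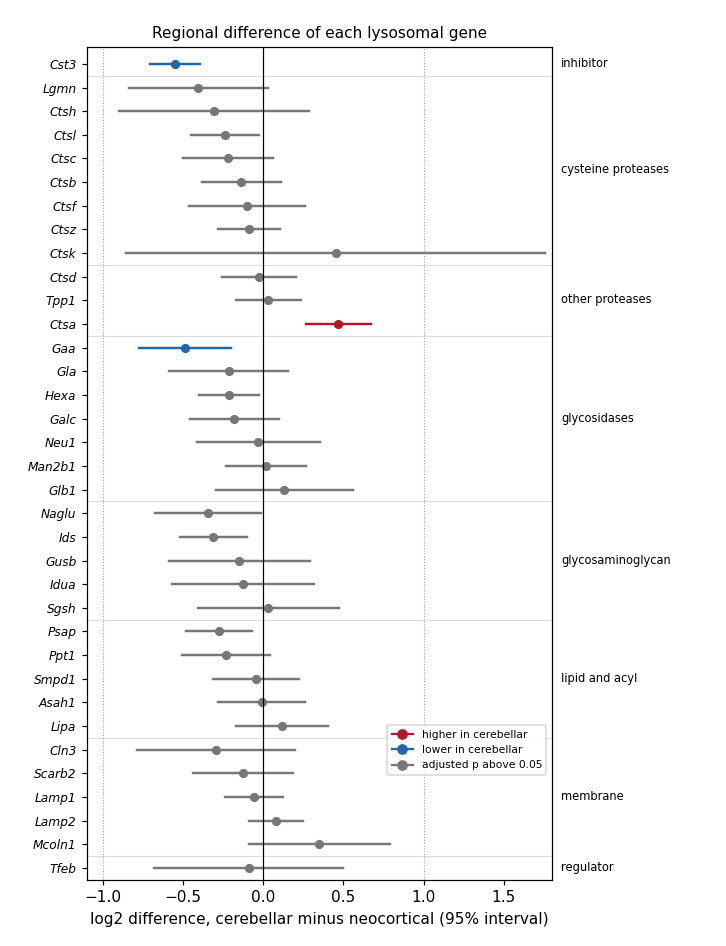
Log2 difference in signal, cerebellar minus neocortical, of each of the 35 genes by its brightest probe set (x axis), with genes grouped by role down the page; points are the fitted difference and bars its 95% interval, with 3 arrays per group. Cst3 and Gaa lie to the left of 0 and Ctsa to the right with adjusted p under 0.05, and Ctsk has the widest interval.

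Cst3 had the lowest adjusted p of the group. The normalized signal, in arbitrary units, was 62490.9, 67184.4 and 67677.9 on the cerebellar arrays, against 97039.0, 91464.2 and 100500.6 on the neocortical arrays. Every cerebellar array lay below every neocortical array, and the spread inside each group was small beside the gap. The means were 65780 ± 2863 on the cerebellar arrays and 96330 ± 4559 on the neocortical arrays (SD, n = 3 each), a log2 difference of -0.55 ± 0.07 (SE) or 1.46-fold lower in cerebellar astrocytes, with a 95% interval of -0.71 to -0.39 and a limma adjusted p of 0.00171. Cst3 had a single probe set (1426195_a_at), so no other could be set beside it. Of the other cystatins, 9 were measured and 8 were within the range of the bacterial controls on all arrays. Cstb, which encodes the intracellular inhibitor cystatin B, was the 1 that could be tested, at 24230 ± 1638 on the cerebellar arrays and 23380 ± 1400 on the neocortical arrays (SD, n = 3 each), a log2 difference of 0.05 with a limma adjusted p of 0.749.

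Cystatin C inhibits cysteine proteases, and none of the 8 cysteine proteases passed the test by its brightest probe set in the limma fit, while 1 of them, Ctsl, had an unadjusted p under 0.05. Their log2 differences ran from -0.41 for Lgmn to 0.45 for Ctsk, with a median of -0.18, and 7 of the 8 were negative. Ctsl, an endopeptidase, had 45547.8, 39069.6 and 35694.2 on the cerebellar arrays, against 48318.2, 46494.3 and 46334.3 on the neocortical arrays. Every cerebellar array was below every neocortical array, with a log2 difference of -0.24 ± 0.09 (SE) and a limma adjusted p of 0.148. Ctsc, which activates serine proteases of immune cells, had a difference of -0.22, Ctsf, a cathepsin of the papain family, -0.10 and Ctsz, a carboxypeptidase, -0.09, and the groups overlapped for each of the 3.

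Ctsb, a cysteine protease with both endopeptidase and carboxypeptidase activity, depended on the probe set. The brightest of its 5 probe sets had 39911.0, 55101.2 and 46494.3 on the cerebellar arrays, against 50587.6, 52515.8 and 51189.5 on the neocortical arrays. The cerebellar arrays spanned the neocortical ones, and the log2 difference was -0.14 ± 0.11 (SE), with a limma adjusted p of 0.472. A dimmer probe set had 3404.7, 4564.1 and 3313.4 on the cerebellar arrays, against 5201.1, 5843.4 and 5813.1 on the neocortical arrays. There the groups did not overlap, and the means of 3761 ± 697.3 on the cerebellar arrays and 5619 ± 362.4 on the neocortical arrays (SD, n = 3 each) differed by -0.59 ± 0.14 (log2, SE; limma adjusted p = 0.0288). Another dim probe set passed too, at 1943 ± 247.6 on the cerebellar arrays and 2988 ± 418.7 on the neocortical arrays (SD, n = 3 each), a log2 difference of -0.62 ± 0.15 (SE; limma adjusted p = 0.0306). The remaining pair had -0.31 (adjusted p = 0.187) and -0.13 (adjusted p = 0.9), so that all 5 differences were negative; which transcripts each probe set reads was not tested.

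Ctsk, Ctsh and Lgmn varied most among the cerebellar arrays. Ctsk, a collagen-degrading cathepsin, had 397.8, 1279.8 and 2808.6 on the cerebellar arrays, against 668.1, 803.9 and 1040.8 on the neocortical arrays. The cerebellar arrays held both the lowest and the highest value, and the log2 difference of 0.45 ± 0.58 (SE) had an interval of -0.86 to 1.76 and a limma adjusted p of 0.673. Without cerebellar array 3 it was -0.21, and without cerebellar array 1 it was 1.20 (adjusted p = 0.0527). Ctsh, an aminopeptidase, had 3638.4, 7118.2 and 8437.6 on the cerebellar arrays, against 7345.9, 7673.5 and 7350.1 on the neocortical arrays. Its low cerebellar value was on array 1, and the log2 difference of -0.31 ± 0.26 (SE; limma adjusted p = 0.5) was 0.06 without it. Lgmn, an asparaginyl endopeptidase that processes other cathepsins, had 7424.1, 13725.9 and 8890.8 on the cerebellar arrays, against 12473.5, 13104.8 and 12895.3 on the neocortical arrays. Here cerebellar array 2 stood above the rest. The difference of -0.41 ± 0.19 (SE; limma adjusted p = 0.218) was -0.66 without that array, with an adjusted p of 0.00888, and -0.22 without cerebellar array 1.

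Ctsa was the single member that was higher in cerebellar astrocytes. It encodes protective protein, a serine carboxypeptidase that also holds β-galactosidase and neuraminidase in a stable complex. The signal of its brighter probe set (1448128_at) was 13159.3, 12537.8 and 14221.4 on the cerebellar arrays, against 10212.2, 9095.5 and 9563.3 on the neocortical arrays. Every cerebellar array lay above every neocortical array. The means were 13310 ± 851.4 on the cerebellar arrays and 9624 ± 560.8 on the neocortical arrays (SD, n = 3 each), a log2 difference of 0.47 ± 0.09 (SE) or 1.38-fold higher, with an interval of 0.26 to 0.67 and a limma adjusted p of 0.0127. A second, much dimmer probe set had a difference of 0.20 (adjusted p = 0.644) and overlapping groups. The call was lost without neocortical array 2 (adjusted p = 0.0531) or 3 (adjusted p = 0.0614), and with arrays scaled by their medians the difference was 0.25 (adjusted p = 0.239). The genes of its partners did not pass: Glb1, β-galactosidase, had a log2 difference of 0.13 with an interval of -0.30 to 0.56, and Neu1, neuraminidase, one of -0.03 with an interval of -0.42 to 0.36.

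The other proteases of the group were Ctsd, the main aspartic protease of lysosomes, and Tpp1, a tripeptidyl peptidase lost in a childhood neuronal ceroid lipofuscinosis. Ctsd had 24458.7, 25283.9 and 20113.3 on the cerebellar arrays, against 25139.1, 22558.2 and 23289.8 on the neocortical arrays. The difference was -0.03, and its interval of -0.26 to 0.20 excluded a change of 1.5-fold. Tpp1 had 24108.8, 28705.2 and 25433.0 on the cerebellar arrays, against 27135.8, 25333.6 and 23989.1 on the neocortical arrays. Its groups overlapped, with a log2 difference of 0.03 ± 0.09 (SE; limma adjusted p = 0.866) that turned to -0.15 with arrays scaled by their medians.

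**Figure D2:**
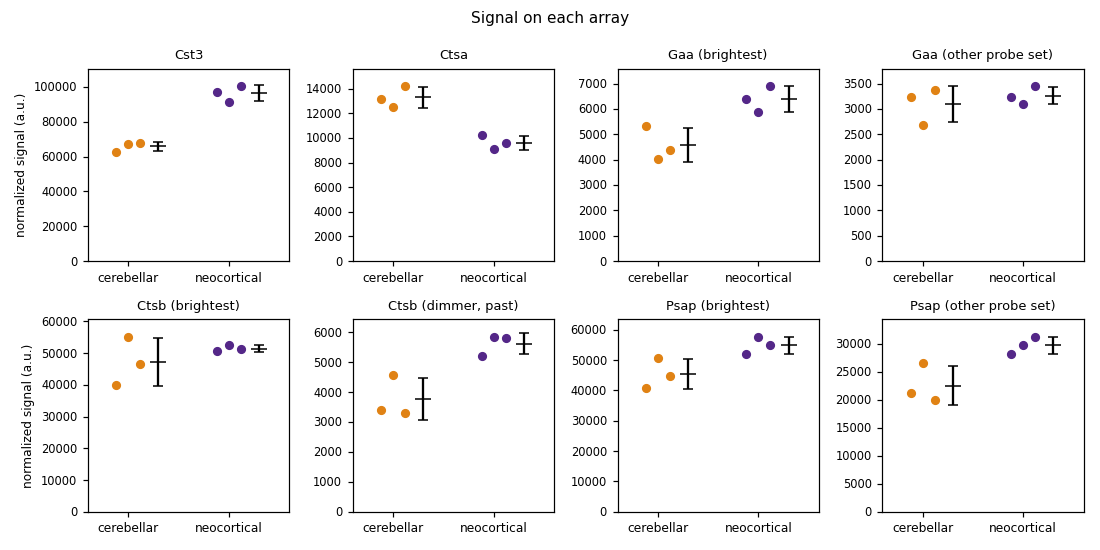
Normalized signal in arbitrary units (y axis, from 0) of the 5 genes with a probe set past the threshold, on 3 cerebellar (left) and 3 neocortical arrays (right) of each panel; points are arrays and bars the mean ± SD. Cst3 and Ctsa separate the regions in opposite directions, while Gaa, Ctsb and Psap each have a probe set with adjusted p under 0.05 and another without.

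Among the 7 glycosidases, Gaa was lower in cerebellar astrocytes and the other 6 did not pass. Gaa, acid α-glucosidase, breaks down glycogen in lysosomes and is lost in Pompe disease. Its brighter probe set (1436849_x_at, of a class that can share sequence with other transcripts) had 5315.5, 4012.2 and 4390.7 on the cerebellar arrays, against 6401.5, 5861.8 and 6904.2 on the neocortical arrays. The groups did not overlap, and the means of 4573 ± 670.5 on the cerebellar arrays and 6389 ± 521.3 on the neocortical arrays (SD, n = 3 each) gave a log2 difference of -0.49 ± 0.13 (SE), 1.4-fold lower, with a limma adjusted p of 0.0413. Its other probe set (1419428_a_at) had 3234.9, 2685.6 and 3368.8 on the cerebellar arrays, against 3234.0, 3103.8 and 3450.9 on the neocortical arrays, which overlapped. That difference was -0.08 ± 0.12 (SE; limma adjusted p = 0.729), and the mean of both probe sets gave -0.29 (adjusted p = 0.147). The call of the brighter one was also lost when cerebellar array 2 or 3 or neocortical array 1, 2 or 3 was left out, with adjusted p from 0.0756 to 0.155.

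The other glycosidases ranged from -0.22 to 0.13 on the log2 scale. Gla, α-galactosidase A, the enzyme lost in Fabry disease, had 915.4, 945.4 and 755.6 on the cerebellar arrays, against 1049.5, 1048.1 and 933.1 on the neocortical arrays. The groups overlapped by 1 array, and the difference was -0.22 ± 0.17 (SE; limma adjusted p = 0.448). Hexa, the α subunit of β-hexosaminidase, had 12827.6, 13498.3 and 12814.8 on the cerebellar arrays, against 15724.9, 14156.6 and 15590.5 on the neocortical arrays. Every cerebellar array was lower, with a difference of -0.22 ± 0.08 (SE) that did not pass (limma adjusted p = 0.133). Galc, which cleaves the myelin lipid galactosylceramide, had a difference of -0.18, and Man2b1, lysosomal α-mannosidase, one of 0.02, and both overlapped between the regions.

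None of the 5 enzymes of glycosaminoglycan breakdown passed in the limma fit. By their brightest probe sets 2 of them, Ids and Naglu, had an unadjusted p under 0.05 and separated the regions. Ids, iduronate 2-sulfatase, had 13839.5, 15360.6 and 13675.5 on the cerebellar arrays, against 17268.8, 19384.5 and 16601.6 on the neocortical arrays. Every cerebellar array was lower, and the log2 difference was -0.31 ± 0.09 (SE; limma adjusted p = 0.0636, or 0.0386 with the replicate block and 0.0472 with arrays scaled by their medians). Under the other 14 alternatives Ids did not pass, with a limma adjusted p of up to 0.242. Naglu, the N-acetylglucosaminidase of heparan sulfate, had 2039.6, 2266.6 and 1653.9 on the cerebellar arrays, against 2494.8, 2701.2 and 2333.6 on the neocortical arrays. It too was lower on every cerebellar array, with a difference of -0.35 ± 0.15 (SE; limma adjusted p = 0.173). The other members were Gusb, β-glucuronidase, at -0.15, Idua, α-iduronidase, at -0.13, and Sgsh, heparan sulfamidase, at 0.03, all with overlapping groups by their brightest probe sets. A dimmer Idua probe set was at -0.72 and lower on every cerebellar array (limma unadjusted p = 0.0138, adjusted p = 0.0885). It was within the bacterial control range on 1 array.

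The 5 genes of lipid and acyl breakdown did not pass by their brightest probe sets; 1 of them, Psap, had an unadjusted p under 0.05. Psap encodes prosaposin, the precursor of the saposins that present sphingolipids to their hydrolases. Its brightest probe set had 40852.9, 50713.1 and 44871.1 on the cerebellar arrays, against 51971.8, 57642.8 and 54956.1 on the neocortical arrays. Every cerebellar array was below every neocortical array, with a log2 difference of -0.28 ± 0.09 (SE) and a limma adjusted p of 0.0917, or 0.0403 with the replicate block and 0.0351 without cerebellar array 2. Under the other 13 alternatives that kept its probe sets Psap did not pass, with a limma adjusted p of up to 0.254. The second probe set passed, at 22550 ± 3509 on the cerebellar arrays and 29750 ± 1560 on the neocortical arrays (SD, n = 3 each), a log2 difference of -0.41 ± 0.11 (SE; limma adjusted p = 0.0486). The others were Ppt1, palmitoyl-protein thioesterase, at -0.23, Smpd1, acid sphingomyelinase, at -0.05, Asah1, acid ceramidase, at -0.01, and Lipa, lysosomal acid lipase, at 0.12. The groups overlapped for all 4 by their brightest probe sets. A dimmer Ppt1 probe set was at -0.385 and lower on every cerebellar array (limma unadjusted p = 0.0298, adjusted p = 0.14), and another was at 0.48 (adjusted p = 0.399).

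By their brightest probe sets, the 5 measured membrane proteins did not differ past the threshold in the limma fit. None of those probe sets had an unadjusted p under 0.05. Mcoln1, the lysosomal calcium channel mucolipin 1, had 1984.0, 2049.7 and 1771.0 on the cerebellar arrays, against 1695.3, 1115.8 and 1842.6 on the neocortical arrays. Neocortical array 2 was the lowest of the 6. The difference of 0.35 ± 0.20 (log2, SE; limma adjusted p = 0.297) was 0.13 without that array, and it was 0.01 by the unsuffixed probe set, which was within the bacterial control range on all 6 arrays. Lamp1 and Lamp2, the heavily glycosylated proteins that line the membrane, were at -0.06 with an interval of -0.24 to 0.12 and at 0.08 with an interval of -0.09 to 0.25, so that a 1.5-fold difference was outside both intervals. Scarb2, the receptor that carries glucocerebrosidase to the lysosome, was at -0.13 by its brightest probe set. Its other probe set was at -0.35 and lower on every cerebellar array (limma unadjusted p = 0.0282, adjusted p = 0.135). Cln3, a membrane protein lost in juvenile neuronal ceroid lipofuscinosis, was at -0.30 by its brightest probe set and 0.50 by another (adjusted p = 0.436 and 0.226). The latter probe set was higher on every cerebellar array (limma unadjusted p = 0.0673).

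Tfeb did not differ detectably. It had 774.0, 584.6 and 787.8 on the cerebellar arrays, against 829.7, 992.6 and 523.8 on the neocortical arrays. The neocortical arrays held both the highest and the lowest value, and the log2 difference of -0.09 ± 0.26 (SE) had an interval of -0.68 to 0.50 and a limma adjusted p of 0.864. Its sign turned with the values as deposited (0.02) and without cerebellar array 2 (0.05) or neocortical array 2 (0.11). The 13 genes with CACGTG in a start-site window had a median difference of -0.10, with 2 past the threshold (Ctsa and Gaa), and the 19 genes with a window and without it had a median of -0.13, with 1 past it (Cst3).

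Over the 35 genes, 7 had every cerebellar array below every neocortical array, which were Cst3, Ctsl, Gaa, Hexa, Ids, Naglu and Psap. This is 7 of 35, beside 18.3% of all genes tested. Ctsa was the 1 with every cerebellar array above, beside 16.0% of all genes, and the groups overlapped for the other 27. Across probe sets, 6 of the 68 tested passed (8.82%, against 10.6% of all probe sets tested), in 5 genes, with 1 higher and 5 lower. Of the 21 genes with several probe sets tested, 14 had differences of 1 sign and 7 did not, which were Cln3, Ctsc, Ctsh, Ctsz, Lamp2, Lipa and Ppt1.

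The cerebellar arrays were not equally low in these genes. Relative to the neocortical mean, the median member was at -0.14, 0.05 and -0.19 (log2) on cerebellar arrays 1, 2 and 3, while the median of all genes was at 0.00, 0.01 and -0.03. Of the 35 genes, 19 had their lowest cerebellar value on array 3, 13 on array 1 and 3 on array 2. Array 2 held the highest cerebellar value for 20 genes. The median SD of the members within a group was 0.20 in cerebellar and 0.11 in neocortical astrocytes (log2, 3 arrays each), and that of all genes was 0.20 in cerebellar and 0.15 in neocortical astrocytes. Members more variable among the cerebellar arrays numbered 26 of 35, beside 63.4% of all genes. Without cerebellar array 2, the lower genes were Cst3, Lgmn and Psap, and without cerebellar array 1 they were Cst3, Ctsl and Gaa.

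**Figure D3:**
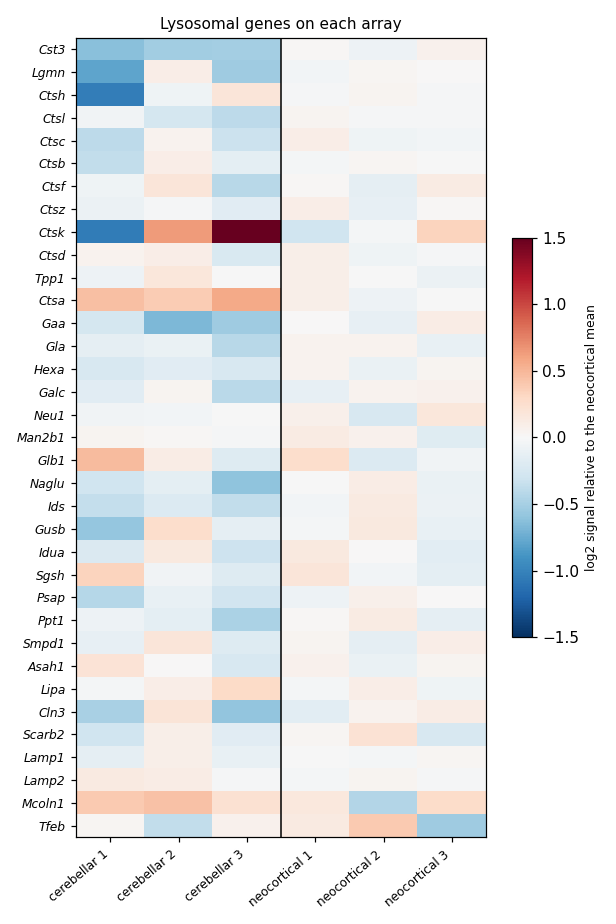
Log2 signal of each gene relative to its mean over the 3 neocortical arrays (colour, blue below and red above), for the brightest probe set of the 35 genes, with the cerebellar arrays on the left and the neocortical arrays on the right. Cst3 is blue on all 3 cerebellar arrays and Ctsa red on all 3, while cerebellar arrays 1 and 3 are blue for most genes and Ctsk runs from the lowest to the highest value of the cerebellar arrays.

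Markers of other cells varied between the same arrays. In bulk RNA, fewer cells of a type and less RNA per cell cannot be told apart. None of 18 microglia and macrophage markers passed in the limma fit, beside 12.7% of all genes tested. None had an unadjusted p under 0.05, beside 27.9% of all genes. Of the 18 markers, 13 were above the bacterial control range on every array. The summed signal of the 18 was 10702, 52522 and 35611 on the cerebellar arrays, against 25869, 47758 and 17620 on the neocortical arrays. By this sum cerebellar array 1 was the lowest of the 6 and cerebellar array 2 the highest. Relative to the neocortical mean, the median marker was at -1.388, 0.716 and 0.278 (log2) on the cerebellar arrays, against -0.083, 0.756 and -0.66 on the neocortical arrays. By this median the lowest was again cerebellar array 1, and the highest was neocortical array 2. The largest differences in that list were those of Tmem119 and Trem2, both at 0.46 (log2; limma adjusted p = 0.394 and 0.529), of which Trem2 was within the bacterial control range on 5 of the 6 arrays. Ctss, a cysteine cathepsin of microglia and macrophages outside the 36 genes, had 2938.0, 8030.6 and 6467.4 on the cerebellar arrays, against 4597.8, 8904.5 and 2837.6 on the neocortical arrays. The part of these cells in the values of Ctsh, Lgmn and the other proteases was not tested.

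Beside 5.3% of all genes higher and 7.36% lower, 3 of 12 fibroblast and meningeal markers were higher in cerebellar astrocytes and none was lower. They were Fn1, fibronectin, by 0.93, Twist1, a mesenchymal transcription factor, by 1.04, and Vtn, vitronectin, by 1.26 on the log2 scale (limma adjusted p = 0.00344, 0.00983 and 0.0308). At a limma unadjusted p under 0.05, 4 were higher and 1 was lower, beside 27.9% of all genes in either direction. With arrays scaled by their medians 3 were higher and 1, Postn, was lower. With the replicate block 5 were higher, and without cerebellar array 1 there were 6. Without any other single array 2 were higher, Fn1 and Twist1, and with no filter on dim signal none was. The summed signal of the 12 was 123339, 190927 and 289661 on the cerebellar arrays, against 114115, 88771 and 140909 on the neocortical arrays. The cerebellar order of the arrays was that of Ctsk, lowest on array 1 and highest on array 3. Among the neocortical arrays the lowest was array 1 for Ctsk and array 2 for the sum, and the highest was array 3 for both. The part of such cells in the Ctsk values was not tested. Of the 12 astrocyte markers 5 were lower and 1 higher, beside 7.36% and 5.3% of all genes. The summed signal of these 12 was 158844, 232479 and 230290 on the cerebellar arrays, against 228486, 278872 and 257348 on the neocortical arrays. Relative to the neocortical mean, the median marker was at -1.098, -0.394 and -0.416 (log2) on the cerebellar arrays, against -0.153, 0.209 and 0.035 on the neocortical arrays. It was lower on all 3 cerebellar arrays, as Cst3 was. Among the neocortical arrays it was highest on array 2, where Cst3 was lowest. The largest differences past the threshold were those of Ndrg2 at -1.52, Acsbg1 at -1.20, Glul, glutamine synthetase, at -0.81, and Slc1a3, a glutamate transporter, at -0.80 (log2), with limma adjusted p from 0.00456 to 0.00926. The marker that was higher was Aqp4, a water channel, at 0.62 (limma adjusted p = 0.0434). Not past the threshold were Gfap at -1.11, S100b at 0.65 and Aldh1l1 at 0.51 (limma adjusted p = 0.0649, 0.211 and 0.0665). With an array left out, Aqp4 passed only without cerebellar array 1 or neocortical array 2, and Aldh1l1 was higher without cerebellar array 3. Of the 5 lower markers all but Aldoc passed whichever array was left out. The median difference of the list then ran from -0.815 to -0.391. With the replicate block 7 were lower, Gfap and Slc1a2 having been added, and with arrays scaled by their medians none was higher and 6 were lower. With the probe sets of each gene averaged, 4 were lower and 2 higher, Aldh1l1 and Aqp4. The median difference of the list was then -0.27, against -0.69 in the reported fit. With no variance trend 3 were lower and none was higher. With no filter on dim signal none passed in either direction. The part of the astrocyte share in the Cst3 value was not tested.

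Other marker lists were small, and are set beside 12.7% of all genes past the threshold. Of 5 tested neuronal markers 2 were lower (Gad1 and Syt1), neither of which passed without neocortical array 2 or 3, while 1 did without cerebellar array 2 or 3 or neocortical array 1. Of the listed neuronal markers 5 of the 10 were within the bacterial control range on every array. Of 6 oligodendrocyte lineage markers 1 was higher (Mbp) and 2 were lower (Olig1 and Olig2), of 2 endothelial markers 1 was lower (Kdr), and of 7 choroid plexus and ependymal markers 2 were lower (Folr1 and Otx2). The ratio of the 3′ to the 5′ control probe set of Gapdh was 0.913 to 1.07 on the cerebellar arrays, against 0.865 to 0.883 on the neocortical arrays. The groups did not overlap in it, and its part in the differences of Cst3, Ctsa and Gaa was not tested.

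**Figure D4:**
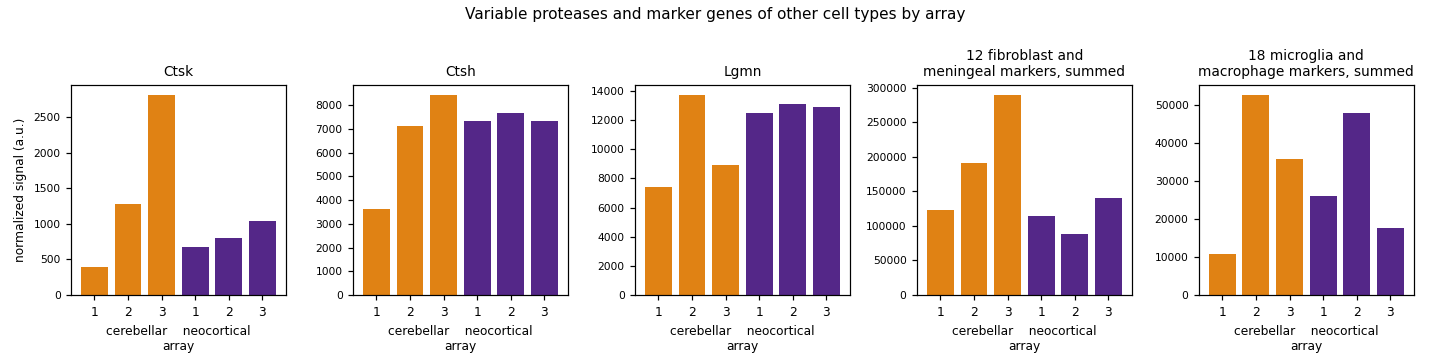
Normalized signal in arbitrary units (y axis, from 0) of Ctsk, Ctsh and Lgmn and the summed signal of 12 fibroblast and meningeal markers and of 18 microglia and macrophage markers, on each of 3 cerebellar (left, orange) and 3 neocortical (right, purple) arrays; each bar is 1 array. Ctsk and the fibroblast and meningeal sum are lowest on cerebellar array 1 and highest on cerebellar array 3 among the cerebellar arrays. Among the neocortical arrays Ctsk is lowest on array 1 and the fibroblast and meningeal sum on array 2. The microglia and macrophage sum is lowest on cerebellar array 1 and highest on cerebellar array 2 of all 6.

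Genes of the wider lysosomal system were set beside the members, from lists drawn up by function. Of 18 other lysosomal hydrolases tested, 2 were lower and none was higher, beside 12.7% of all genes past the threshold. Their median log2 difference of -0.23 was -0.11 without cerebellar array 1 and -0.13 without neocortical array 2. Plbd2, a phospholipase B-like protein, had 2007.5, 1714.2 and 1509.9 on the cerebellar arrays, against 2942.0, 2496.2 and 2987.7 on the neocortical arrays, a difference of -0.69 ± 0.15 (SE; limma adjusted p = 0.0191). Ctso, a cysteine cathepsin, was at -0.53 ± 0.13 (SE; limma adjusted p = 0.0304), and both genes were lower on every cerebellar array. Neither passed without neocortical array 1 or without neocortical array 3, and Plbd2 alone passed without cerebellar array 1 or 3 or neocortical array 2. With no filter on dim signal, with no variance trend or with averaged probe sets neither passed. With arrays scaled by their medians 4 of the list were lower, and with the values as deposited 3. Scpep1, another of the 18, was at 0.42 and higher on every cerebellar array (limma adjusted p = 0.0521). It passed as higher with the floor at the 40th percentile or the filter at the 60th.

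Of 18 genes of lysosomal delivery, Sort1 and Gga2 were lower, Ap3d1 and Vps26a were higher, and 14 did not pass. Of all genes tested, 7.36% were lower and 5.3% higher. Sort1, sortilin, a receptor that carries prosaposin and other proteins from the Golgi to the lysosome, had 4018.4, 3822.9 and 3843.3 on the cerebellar arrays, against 5870.5, 6000.0 and 6440.4 on the neocortical arrays. The groups were far apart relative to their spread, with a difference of -0.65 ± 0.10 (log2, SE; limma adjusted p = 0.0035) that passed whichever array was left out. Gga2, a Golgi adaptor of sorting receptors, was at -0.63 ± 0.15 (limma adjusted p = 0.0276), Ap3d1, a subunit of the AP-3 adaptor, at 0.48 ± 0.11 (0.0298) and Vps26a, a retromer subunit, at 0.35 ± 0.09 (0.0452). With an array left out, Gga2 passed only without cerebellar array 3, Ap3d1 only without cerebellar array 1 or neocortical array 1, and Vps26a in none of the 6 fits. With the replicate block 1 was higher, Ap3d1, and 3 were lower, with M6pr, the cation-dependent mannose 6-phosphate receptor, added. With arrays scaled by their medians none was higher and 3 were lower.

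The largest difference past the threshold in these pathway lists was that of Rragd, which encodes a Rag GTPase through which mTORC1 acts on TFEB at the lysosomal surface. It had 2909.0, 3065.3 and 2597.3 on the cerebellar arrays, against 6617.8, 7136.1 and 6559.4 on the neocortical arrays. The cerebellar values were all under the lowest neocortical value, and the difference was -1.25 ± 0.11 (log2, SE) or 2.37-fold lower, with a limma adjusted p of 0.000245. Beside 12.7% of all genes, Rragd was the 1 gene past the threshold among 10 tested genes of the TFEB family and its control. The others were not past it, among them Mitf at 0.05 and Tfe3 at 0.10, both transcription factors related to TFEB, and Rragc, a close relative of Rragd, at 0.24 (limma adjusted p = 0.109).

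The lists of the proton pump, of other membrane proteins and of autophagy were small. They are set beside 12.7% of all genes past the threshold and 27.9% with an unadjusted p under 0.05. None of 16 subunits of the vacuolar proton pump passed in the limma fit (unadjusted p under 0.05 for 1 higher and 2 lower, median -0.12), and none of 21 other lysosomal membrane and transport genes (2 higher and 4 lower at that p, median -0.01). With the replicate block 1 of each of these 2 lists was lower, Atp6v0e2 and Ostm1. With arrays scaled by their medians 2 pump genes were lower, Atp6v0e2 and Atp6v1a, and 1 membrane gene, Ostm1, and none was higher. Of 21 autophagy genes, Atg16l1, which helps to lipidate LC3 on the growing autophagosome, was higher by 0.56 ± 0.15 on the log2 scale (SE; limma adjusted p = 0.0485), and it did not pass when any 1 of the 6 arrays was left out or with arrays scaled by their medians.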

How the data were processed

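For 3 cerebellar and 3 neocortical arrays, linear intensities were deposited by the authors, 1 per probe set, with identifiers of an Affymetrix mouse array. How probes were summarised is not given in the sources used here. Each array had a trimmed mean of 1500 (2% off each end), and the medians ran from 284.7 to 361.2. Array number limits the precision, and no depth applies.

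The 45037 non-control probe sets (64 controls were left out of 45101) underwent quantile normalization, a floor of 62.16 (the 20th percentile) was set, and log2 was taken. A mean reaching the 40th percentile was required, which left 27022 probe sets, tested two-sided in R 4.3.3 by limma 3.58.1, using lmFit and eBayes with its variance trend and no replicate block, and p was adjusted by Benjamini-Hochberg with a threshold of 0.05. The script was tested on simulated data first. Means ± SD are of normalized signal before the floor, and folds are from the fitted log2 differences. Levels of different genes were not compared. In place of detection calls, 24 bacterial control probe sets, from 2.9 to 269.2 as deposited, described the dim range.

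Symbols came from the platform annotation, with 1 symbol for 34945 probe sets, several for 932 and none for 9160, and the GRCm38.p6 gene table held 34741 of the first by Entrez ID. A gene was read by its brightest probe set. The members and all lists were chosen with earlier results of these data known. Values per array are given for Cst3, Tfeb, every member with a probe set past the threshold and, in each role group, the largest difference that did not pass; of each other list up to 4 genes past the threshold were named. Other genes and per-array values were added after their values were seen.

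Same-numbered arrays of the 2 groups deviated from their group means together, with correlations across probe sets of 0.18, 0.188 and 0.101. For arrays of different numbers the correlations ran from -0.182 to 0.0225. Deviations from a group mean cancel within the group, so higher values for the same numbers force lower ones for different numbers. The 2 sets of correlations are therefore not independent. The labels do not say that the numbers pair the arrays, so such a pairing rests on the data alone. The reported fit leaves it out, and the fit with the replicate block is given as an alternative. With the block 4 members were lower, against 2 in the reported fit. The alternatives were other scalings, floors and filters, no variance trend, other choices of probe set, the replicate block and leaving out each array.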

Additional observations from a re-analysis of the deposited data

How the results depend on the processing

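Under 16 alternatives, Cst3 was lower with an adjusted p of 0.00146 to 0.044 in the 15 that kept its only probe set, with log2 differences of -0.587 to -0.389. Ctsa (adjusted p of 0.011 to 0.239) lost its call under 5 alternatives, in the same direction throughout. Gaa (0.0153 to 0.155) lost its call under 8 of those that kept its probe sets, also in the same direction throughout. The members that were higher numbered 0 with arrays scaled by their medians (3 were then lower, against 1 higher and 2 lower in the limma fit reported above), with no variance trend and when the probe sets of each gene were averaged, and 0 to 1 with an array left out, the 0 being without neocortical array 2 or 3. The members that were lower numbered 1 (Cst3) with no filter, with no variance trend and with averaged probe sets, and 4 with the replicate block. With an array left out they numbered 1 to 3, the 1 being without cerebellar array 3 or any neocortical array. With suffixed probe sets left out they numbered 0 of 26. That setting removes every probe set of Cst3 and of Gaa, so neither gene was tested in it. Scaling by medians shifted the median of the members to -0.257 and that of all genes to -0.144, against -0.128 and -0.015 in the reported fit, a shift common to all genes. The median of the members lay 0.113 below that of all genes in the reported fit, against 0.218 below without cerebellar array 2, 0.078 without cerebellar array 1, 0.074 without neocortical array 1 and 0.072 with averaged probe sets.

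Signs turned for genes that never passed: Tfeb was at 0.016 with the values as deposited and Tpp1 at -0.147 with median scaling. With an array left out, Ctsh ran from -0.551 to 0.056, Ctsk from -0.207 to 1.203, Tfeb from -0.356 to 0.105 (0.048 without cerebellar array 2) and Tpp1 from -0.04 (-0.011 without neocortical array 3) to 0.086. Over all probe sets, 1319 were higher and 1545 lower, against 819 and 2105 with median scaling, 577 and 704 with no filter, 676 and 914 with no variance trend, and 548 and 665 without neocortical array 3, the fewest with an array left out. The cause of these changes was not tested.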
